A study of Mus musculus with 6 samples.

Results

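Transcripts of 8 genes that build iron-sulfur clusters or carry iron into the mitochondrion were followed in the kidneys of iron-deficient and iron-sufficient mouse pups. The genes, called members below, were Nfs1, Iscu, Hscb, Glrx5, Isca1, Isca2 and the mitoferrins Slc25a37 and Slc25a28. They were chosen by symbol for these roles, and all 8 were found among the 24422 genes of the count tables. Whole kidneys of 3 pups whose dams ate too little iron (FeD, 2 to 6 ppm of the diet) were compared with those of 3 pups whose dams ate enough (control, 220 ppm). All 6 mice were wild type C57BL/6 and were labelled as postnatal day 15, and each kidney gave 1 library of polyadenylated RNA. The dams were started on their diets before mating and kept on them through pregnancy and nursing, so the pups had met the diet in the womb and in milk. The litters are not given in the sources used here, and differences between litters cannot be told apart from the diet. The p-values therefore measure the spread between these kidneys alone.

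An iron-sulfur cluster is a small cofactor of iron and inorganic sulfide that many enzymes need to carry electrons or hold a substrate. It is built in the mitochondrial matrix. Mitoferrins bring iron across the inner membrane, NFS1 takes sulfur from cysteine, and both are joined on the scaffold protein ISCU. The co-chaperone HSCB and the chaperone HSPA9 release the new cluster to the glutaredoxin GLRX5, and ISCA1, ISCA2 and IBA57 use such clusters to make larger ones for aconitase, lipoate synthase and respiratory complexes. A separate cytosolic machinery serves enzymes of the cytosol and nucleus. The tubules of the kidney, among them the proximal tubule, are rich in mitochondria and rely on these respiratory complexes.

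In FeD kidneys the 8 transcripts did not move as 1 block. Glrx5, Slc25a37, Nfs1 and Iscu fell by 26.4%, 21.7%, 18.3% and 13.1%. Hscb and Slc25a28 rose by 33.5% and 32.4%. Isca1 and Isca2 did not pass the test. With edgeR's quasi-likelihood test and an adjusted P under 0.05, 2 of the 8 were higher, against 22.4% of the 15145 tested genes, and 4 were lower, against 23.3%. At the study's threshold of a change of at least 2-fold, 0 of the 8 were called, against 10.03% of tested genes. The changes were therefore small, and the median log2 fold change of the 8 was -0.17 beside 0 for all tested genes. In 8 of 8 the 3 FeD kidneys did not overlap the 3 controls, which held for 58.1% of tested genes. In whole kidneys, fewer cells of a type and less RNA per cell cannot be told apart.

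**Figure D1:**
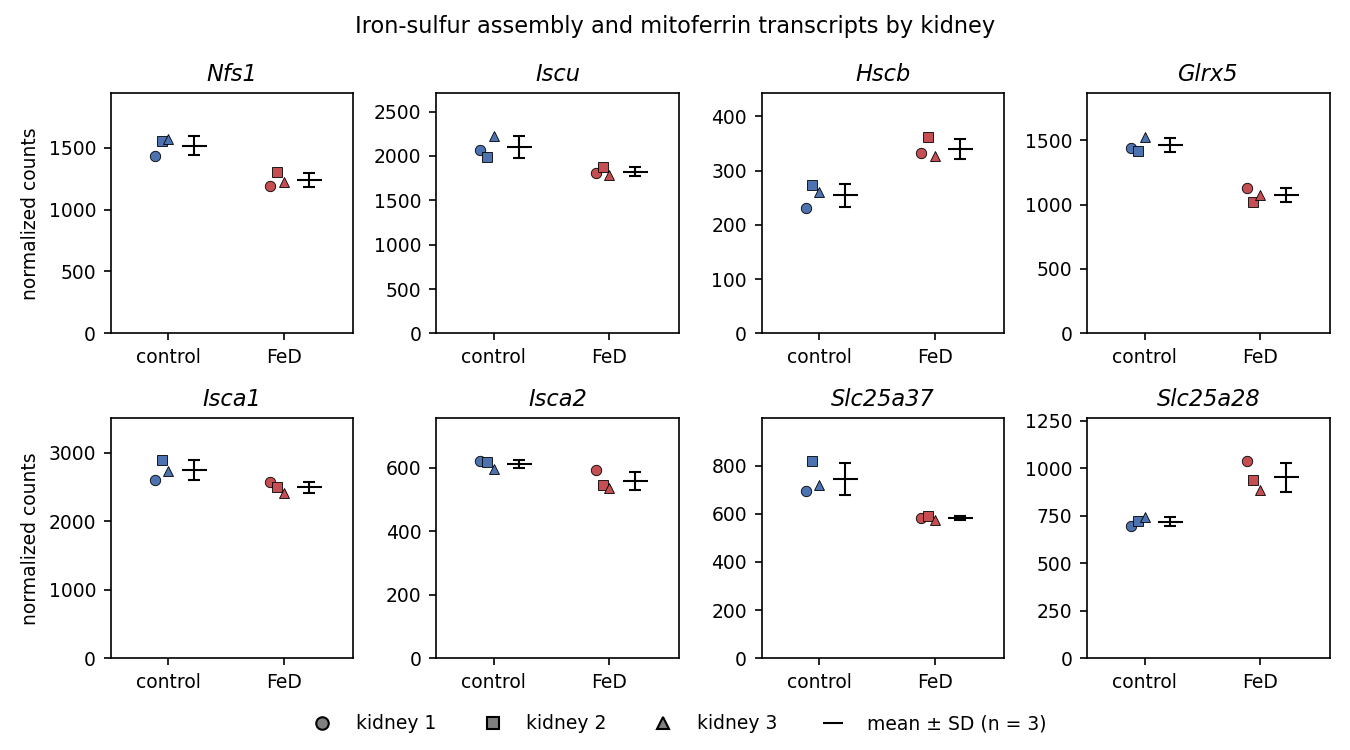
Normalized counts (y axis, starting at 0, a different range for each gene) of the 8 transcripts in 3 control and 3 FeD kidneys, 1 point per kidney, with the mean ± SD beside the points. The FeD points lie below the control points in 6 panels and above them in those of Hscb and Slc25a28.

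The counts on genes totalled 13732173 to 20853293 per kidney, and the normalized counts below are scaled by edgeR's TMM factors to the mean of these totals. The members had 231 to 2898 normalized counts in each kidney. Their coefficient of variation within a group ran from 1.32% (Slc25a37, FeD) to 8.87% (Slc25a37, control). In simulated counts the same test recovered 46 of 100 genes that were changed by 0.5 on the log2 scale. Far fewer genes were changed there (100 by 0.5 and 100 by 1) than passed in these kidneys (22.4% higher and 23.3% lower). The adjustment for many tests was therefore stricter in the simulation, and its share recovered is not the power for the members. Every member's change was smaller than 0.5, and a member that did not pass may still have changed. Groups are given as mean ± SD with n = 3 throughout, and log2 fold changes are FeD over control with the SE and adjusted P of edgeR's quasi-likelihood test.

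Per length of exon, the members covered a wide range of levels. In control kidneys Glrx5 was the highest at 87.9 ± 3.42 RPKM (counts scaled by library total, TMM factor and exon length, mean ± SD), above 95.4% of tested genes. Iscu followed with 53.9 ± 3.11 RPKM, and Isca2 and Isca1 with 39.4 ± 0.843 and 35.9 ± 1.89. Slc25a28 had 26.6 ± 0.915 RPKM, Nfs1 20.3 ± 1.02 and Hscb 15.7 ± 1.34. Slc25a37 was the lowest at 9.99 ± 0.885 RPKM, above 58.3% of tested genes. In this order no member's control range overlapped that of its neighbour. In FeD kidneys Slc25a28 moved up to 35.2 ± 2.83 RPKM, and its range overlapped those of Isca2 (35.9 ± 1.88) and Isca1 (32.6 ± 1.10). Hscb, at 21.0 ± 1.18 RPKM, stood above Nfs1, at 16.6 ± 0.739, which was the opposite of their control order. The order rests on the length used: per length of the longest coding transcript, the control level of Isca1 was 79.1 and that of Nfs1 41.4 RPKM. By that length the FeD levels of Isca1 and Nfs1 were 71.9 and 33.8 RPKM, so that Nfs1 stayed above Hscb (23.7) and Slc25a28 (35.2) did not reach Isca1. Slc25a37 was the lowest under both lengths.

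NFS1 and ISCU carry out the first step, the joining of sulfur and iron. Nfs1 (ENSMUSG00000027618.10, mm9 chr2:155904665-155969922, minus strand) had 1429, 1557 and 1566 normalized counts in control kidneys and 1194, 1302 and 1226 in FeD kidneys. The highest FeD kidney lay below the lowest control. The mean fell from 1520 ± 76.5 to 1240 ± 55.3, which is -0.29 on the log2 scale (SE 0.07, 95% interval -0.441 to -0.141, adjusted P = 0.0075). Its annotated exons share 13.8% of their bases with Cpne1 and 5.35% with Rbm12 on the same strand and 3.53% with Romo1 on the other, so that some reads there may belong to these genes.

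Iscu (ENSMUSG00000025825.6, chr5:114222757-114228297, plus strand) had 2072, 1993 and 2231 normalized counts in control and 1805, 1880 and 1788 in FeD kidneys. The gap between the groups was narrow, from 1880 to 1993. The log2 fold change of -0.20 (SE 0.06, interval -0.344 to -0.060) passed with an adjusted P of 0.028, from 2100 ± 121 to 1820 ± 48.9. Of the 4 lower calls, that of Iscu depended most on the settings. With the fold changes corrected for exon length it was -0.10 (adjusted P = 0.22), and without control kidney 1, control kidney 3 or FeD kidney 1 the adjusted P was 0.071, 0.11 or 0.076. The Iscu transcript has stretches with copies elsewhere in mm9 (46.3% of its bases at 95% identity or more over at least 100 bases, 0 at 99%).

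HSCB and GLRX5 act next, in the release and relay of the finished cluster, and their transcripts moved in opposite directions. Glrx5 (ENSMUSG00000021102.3, chr12:106270899-106279120, plus strand) had 1439, 1419 and 1526 normalized counts in control kidneys and 1131, 1016 and 1076 in FeD kidneys. No other member had as large a change relative to its SE. The mean fell from 1460 ± 56.9 to 1070 ± 57.3, which is -0.44 on the log2 scale (SE 0.07, interval -0.594 to -0.292, adjusted P = 0.0011). With the correction for exon length it was -0.26, with an adjusted P of 0.013.

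Hscb (ENSMUSG00000043510.6, chr5:111258089-111268796, minus strand), the member with the fewest counts, had 231, 273 and 260 normalized counts in control and 332, 362 and 327 in FeD kidneys. All 3 FeD kidneys were above all controls. The mean rose from 255 ± 21.7 to 340 ± 19.1, which is 0.42 on the log2 scale (SE 0.10, interval 0.181 to 0.652, adjusted P = 0.011). Without control kidney 1, its lowest kidney, the log2 fold change was 0.35 and the adjusted P 0.050, at the threshold. HSPA9, the chaperone that HSCB works with, has many other clients in the matrix, and Hspa9 went from 13000 ± 483 to 11900 ± 790 normalized counts with overlapping groups (log2 change -0.13, adjusted P = 0.20).

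ISCA1 and ISCA2 work as partners late in the pathway. Isca1 (ENSMUSG00000044792.6, chr13:59856770-59871171, minus strand) had 2609, 2898 and 2741 normalized counts in control and 2580, 2498 and 2411 in FeD kidneys. Isca2 (ENSMUSG00000021241.6, chr12:86114220-86116039, plus strand) had 621, 617 and 597 in control and 591, 545 and 537 in FeD kidneys. In both genes the FeD kidneys lay just below the controls, with gaps only from 2580 to 2609 and from 591 to 597. The log2 fold changes were -0.14 (interval -0.280 to 0.002, adjusted P = 0.097) and -0.13 (interval -0.308 to 0.045, adjusted P = 0.19). A fall of about the size seen in Iscu is within both intervals. With the correction for exon length Isca2, a short transcript, turned to 0.05 (adjusted P = 0.60). The ratio of the 2 transcripts was similar in both groups on average. The log2 ratio of Isca1 to Isca2 counts was 2.17 ± 0.09 in control and 2.16 ± 0.04 in FeD kidneys, and the means differed by -0.01 (two-sided exact permutation p = 0.9, where 3 against 3 cannot go below 0.1). Without control kidney 2, control kidney 3 or FeD kidney 1 this difference was 0.03, 0.01 or 0.01. Copies at 2 other places in mm9 cover 98.8% of the Isca1 transcript at 95% identity or more, up to 98.9% identity, so its uniquely mapped reads may be undercounted.

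**Figure D2:**
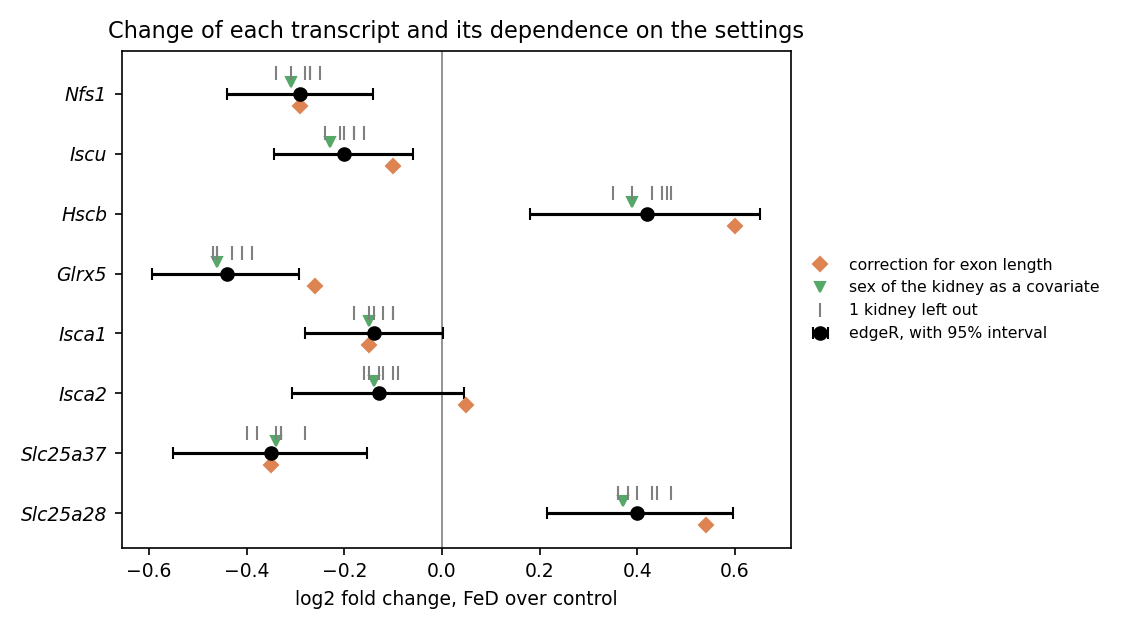
Log2 fold change of each member, FeD over control (x axis), with its 95% interval from edgeR (black), after correction for exon length (diamonds), with sex as a covariate (triangles) and with each kidney left out in turn (ticks). The intervals of Isca1 and Isca2 include 0, and Isca2 crosses 0 with the correction for exon length, at 0.05.

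The mitoferrins are 2 related carriers of the inner membrane. Mitoferrin-1, encoded by Slc25a37, is best known from red cell precursors, where it feeds heme synthesis, and mitoferrin-2, encoded by Slc25a28, is used by most other cells. Slc25a37 (ENSMUSG00000034248.6, chr14:69859908-69903160, minus strand) had 694, 818 and 718 normalized counts in control kidneys and 580, 590 and 575 in FeD kidneys. The FeD kidneys were almost level with each other, and control kidney 2 stood above the rest. The mean fell from 743 ± 65.9 to 582 ± 7.66, which is -0.35 on the log2 scale (SE 0.09, interval -0.551 to -0.153, adjusted P = 0.011). Without control kidney 2 it was -0.28, with an adjusted P of 0.046.

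Slc25a28 (ENSMUSG00000040414.7, chr19:43738312-43749371, minus strand) had 694, 721 and 744 normalized counts in control and 1036, 937 and 885 in FeD kidneys. The lowest FeD kidney was above the highest control. The mean rose from 719 ± 24.8 to 952 ± 76.6, which is 0.40 on the log2 scale (SE 0.08, interval 0.215 to 0.595, adjusted P = 0.0050), and it was 0.54 with the correction for exon length. The balance of the mitoferrins was then taken within each kidney, where library size has no part. The log2 ratio of Slc25a37 to Slc25a28 counts was 0, 0.18 and -0.05 in control kidneys and -0.83, -0.67 and -0.62 in FeD kidneys. In control kidneys both transcripts thus had about equal counts, and in every FeD kidney Slc25a28 had more. These counts do not allow for the longer exons of Slc25a37 (4162 against 1514 bases). Per length of exon, Slc25a28 was the higher in both groups. It had 26.6 against 9.99 RPKM in control and 35.2 against 7.82 RPKM in FeD kidneys. The difference of -0.75 in the log2 count ratio gave p = 0.1 by the two-sided exact permutation test, the smallest that 3 against 3 can give. This difference ran from -0.80 to -0.68 with each kidney left out or another pseudocount.

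**Figure D3:**
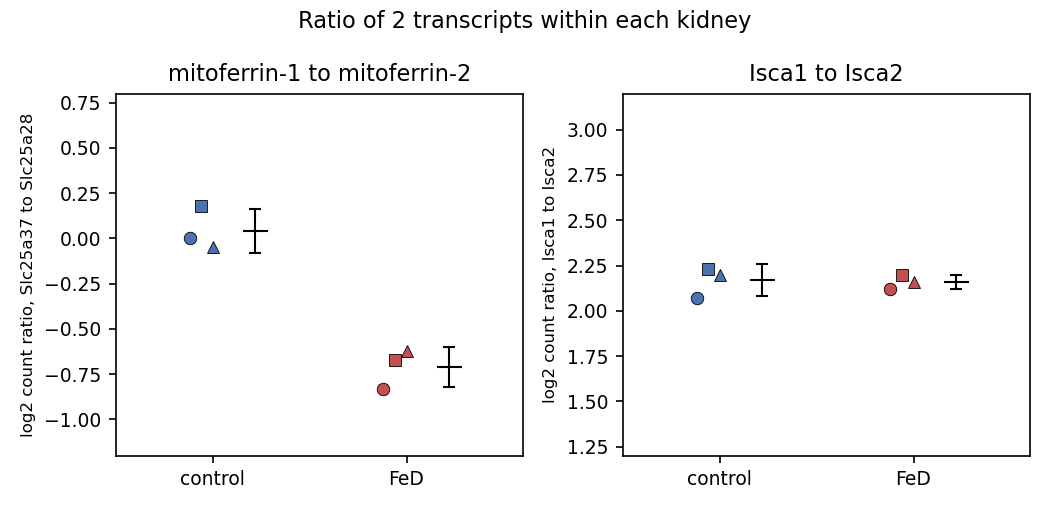
Log2 ratio of the counts of Slc25a37 to Slc25a28 (left) and of Isca1 to Isca2 (right) in each of 3 control and 3 FeD kidneys, with mean ± SD; both y axes span the same number of log2 units and do not start at 0. The mitoferrin ratio is 0.04 ± 0.12 in control and -0.71 ± 0.11 in FeD kidneys, and the Isca ratios overlap.

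Because mitoferrin-1 serves red cell precursors, erythroid markers were read beside it. Of 11 erythroid genes in the tables, 4, the globins Hba-a1, Hba-a2, Hbb-b1 and Hbb-b2, were at 0 in every kidney, so blood RNA could not be judged from them. The summed level of the list was 25.7 to 63.3 CPM (counts scaled by library total and TMM factor) in control and 11.5 to 31.4 CPM in FeD kidneys. Alas2, which starts heme synthesis in red cell precursors, had 18.76, 42.59 and 27.29 CPM in control and 23.11, 11.17 and 5.17 CPM in FeD kidneys. It was highest in control kidney 2, as was Slc25a37, and its groups overlapped (log2 fold change -1.17, adjusted P = 0.081). Of the 4 erythroid genes tested 1 was lower, beside 23.3% of all tested genes. It was Klf1, an erythroid transcription factor (91.1 ± 7.49 to 51.9 ± 10.8 normalized counts, adjusted P = 0.013), named after its values were seen. The part of red cell precursors in the fall of Slc25a37 was not tested.

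The 250 bases before the start of transcription are shown for 3 members that changed, Glrx5 and Nfs1 (lower) and Slc25a28 (higher), as the stretch where regulators of these genes may bind. The sequences are RefSeq's, in GRCm38.p6, which had entries for 5 of the 8 members (also Isca1 and Isca2; Iscu, Hscb and Slc25a37 were not matched). They run 5′ to 3′ along the gene, and capitals mark the motifs that were searched on both strands: CCAAT, bound by NF-Y, the core ACGTG or GCGTG of sites for hypoxia-inducible factors, and CCGGAAG, bound by ETS factors.
Glrx5, chr12:105032368-105032617, plus strand: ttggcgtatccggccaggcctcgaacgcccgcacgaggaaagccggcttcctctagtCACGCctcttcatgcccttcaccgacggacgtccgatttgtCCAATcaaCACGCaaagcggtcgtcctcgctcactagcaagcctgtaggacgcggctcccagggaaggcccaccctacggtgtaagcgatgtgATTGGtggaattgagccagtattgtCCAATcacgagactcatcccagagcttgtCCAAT
Nfs1, chr2:156144187-156144436, minus strand: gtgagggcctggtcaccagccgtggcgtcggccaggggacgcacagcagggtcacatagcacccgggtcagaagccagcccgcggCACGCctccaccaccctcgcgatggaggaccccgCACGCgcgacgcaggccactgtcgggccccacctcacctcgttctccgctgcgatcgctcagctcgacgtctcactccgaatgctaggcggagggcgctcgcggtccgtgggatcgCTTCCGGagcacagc
Slc25a28, chr19:43674882-43675131, minus strand: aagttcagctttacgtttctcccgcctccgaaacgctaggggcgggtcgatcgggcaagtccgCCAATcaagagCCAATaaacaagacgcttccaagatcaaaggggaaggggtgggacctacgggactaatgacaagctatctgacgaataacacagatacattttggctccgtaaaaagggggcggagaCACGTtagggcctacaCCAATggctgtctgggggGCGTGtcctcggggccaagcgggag
Glrx5 had 4 CCAAT matches, Slc25a28 had 3 and Nfs1 had 0, and among 32851 mouse promoters 33.8% held at least 1. The hypoxia core was found 2 times in each of the 3, and 38.6% of all promoters held it. CCGGAAG was found 1 time in Nfs1, Isca1 and Isca2, and in 6.91% of all promoters. Of the 3 members shown, Slc25a28 (higher) and Glrx5 (lower) held both CCAAT and the hypoxia core. So did Isca2, which did not pass the test, with 2 and 1 matches. These matches describe letters and do not show binding.

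Other factors of cluster assembly were taken from 2 lists. Of 14 further mitochondrial factors, 0 were higher, 4 were lower and 10 did not pass, beside 22.4% higher and 23.3% lower among all tested genes. The median of these factors was -0.21 on the log2 scale, and -0.12 with the correction for exon length. Under the 17 alternatives 3 to 6 were lower, with 6 without FeD kidney 1. Ndufab1, Bola3 and Iba57 were among the lower genes, and Bola3 and Iba57 are named after their values were seen. Ndufab1, the acyl carrier protein that holds the NFS1 complex together and is also a part of respiratory complex I, fell from 2400 ± 212 to 1280 ± 166 normalized counts (log2 change -0.90, SE 0.10, adjusted P = 3.3e-04). Iba57, the partner of ISCA1 and ISCA2, had a log2 fold change of -0.41 (adjusted P = 0.0055), and Bola3, which hands clusters on to lipoate synthase and others, one of -0.63 (adjusted P = 0.0016). Within the NFS1 complex, Ndufab1 thus had a larger change than Nfs1 and Iscu themselves, as point values whose difference was not tested.

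Of 13 cytosolic factors, 2 were higher, 6 were lower and 5 did not pass (median -0.26, or -0.19 with the correction for exon length). Fam96b, a targeting factor that brings clusters to client enzymes, fell from 351 ± 27.2 to 194 ± 11.8 normalized counts (log2 change -0.86, adjusted P = 4.8e-04). Ciapin1, an electron carrier of the cytosolic machinery, fell from 1390 ± 26.4 to 858 ± 108 (-0.69, adjusted P = 7.1e-04). Its reductase Ndor1 moved the other way, from 1020 ± 53.4 to 1390 ± 168 (0.44, adjusted P = 0.0063). Mms19, the adaptor for DNA repair enzymes, also rose, from 1330 ± 29.5 to 1620 ± 146 (0.28, adjusted P = 0.017). Over the 2 lists together, 2 of 27 genes were higher and 10 were lower, against 22.4% and 23.3% of all tested genes. Of the cytosolic factors, 1 was higher without control kidney 1, 2 or 3 and with the correction for exon length, alone or with the replicate number as a block. Of the same factors, 4 were lower without control kidney 2 or 3 or FeD kidney 2, and with that correction and block together.

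The client proteins were then counted. Of the transcripts of 14 mitochondrial proteins that hold a cluster, 10 were lower and 2 were higher. The median was -0.61 on the log2 scale, and -0.46 with the correction for exon length. Under 17 alternatives 10 or 11 were lower, and 0 were higher without control kidney 1, 2 or 3 or FeD kidney 2, with sex as a covariate or with upper quartile scaling, and 1 without FeD kidney 1. Ndufs8, a subunit of complex I, fell from 2770 ± 89.2 to 1390 ± 113 normalized counts (-0.99, SE 0.07, adjusted P = 5.0e-05). Cisd3, a small cluster protein of the matrix, fell from 704 ± 48.7 to 375 ± 36.1 (-0.91, adjusted P = 2.7e-04). The 2 that rose were Mocs1, of molybdenum cofactor synthesis (0.33, adjusted P = 0.031), and Fech, which puts iron into heme (0.20, adjusted P = 0.029). Of 18 clients in the cytosol and nucleus, 3 were higher, 4 were lower and 11 did not pass (median -0.09). Of all tested genes 22.4% were higher and 23.3% lower, and this list was not above either share. Its counts moved with single kidneys: 1 was higher without FeD kidney 1 or any 1 control kidney, or without a filter on low counts, and 1, 3 and 2 were lower without control kidneys 1, 2 and 3. Xdh, xanthine dehydrogenase, rose from 565 ± 94.8 to 1190 ± 417 (1.08, SE 0.25, adjusted P = 0.0088), and Elp3, of transfer RNA modification, rose by 0.28 on the log2 scale (adjusted P = 0.045). Aco1, which acts as aconitase with its cluster and as iron regulatory protein 1 without it, fell from 9220 ± 350 to 5650 ± 137 (-0.71, adjusted P = 1.5e-04), and the helicase Ddx11 fell from 148 ± 21.3 to 93.2 ± 17.8 (-0.66, adjusted P = 0.021).

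**Figure D4:**
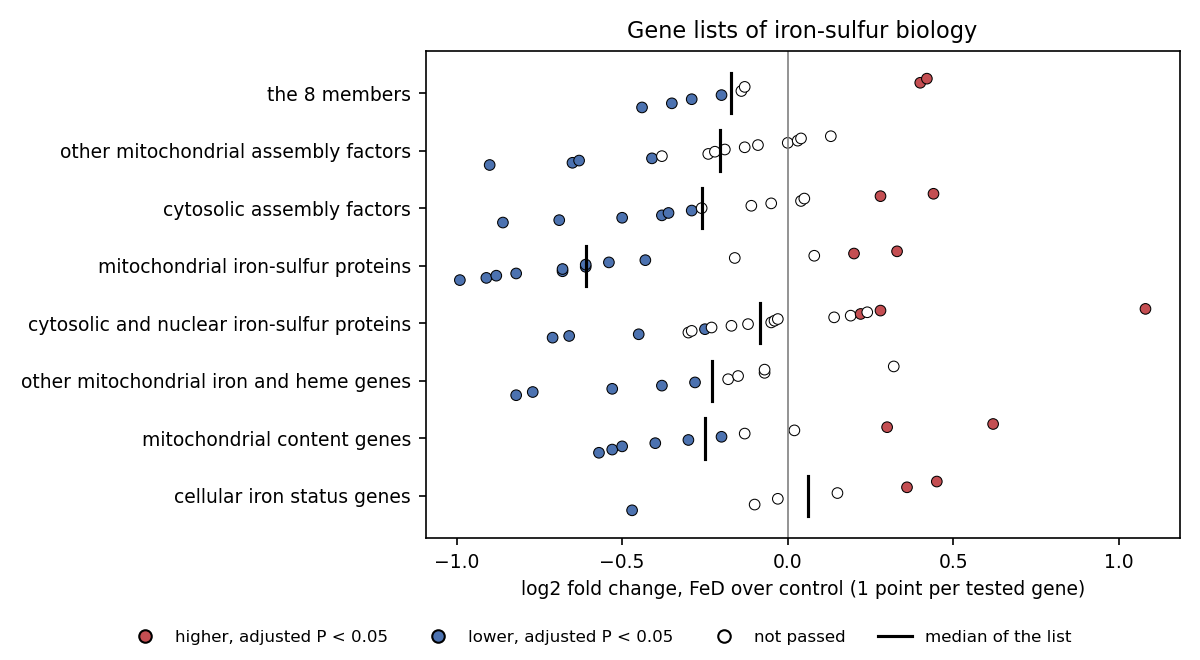
Log2 fold change, FeD over control (x axis), of the tested genes of each list, 1 point per gene, filled where the adjusted P of edgeR was under 0.05 (red higher, blue lower), with the median as a bar. The median is -0.61 for mitochondrial iron-sulfur proteins and -0.17 for the 8 members, both without the correction for exon length.

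Other genes of mitochondrial iron and heme gave 0 higher and 5 lower of 10 tested (median -0.23, or -0.16 with the correction for exon length). Of all tested genes 22.4% were higher and 23.3% lower. Ftmt, mitochondrial ferritin, was at 0 counts in every kidney. Under the 17 alternatives 4 to 6 were lower, and 1 was higher without control kidney 2, with the correction for exon length or with sex as a covariate. Abcb8, a transporter linked to mitochondrial iron export, fell from 1660 ± 48.6 to 939 ± 23.9 normalized counts (log2 change -0.82, SE 0.06, adjusted P = 4.8e-05). Slc25a39, the carrier of glutathione into mitochondria, fell from 6790 ± 308 to 3980 ± 471 (-0.77, adjusted P = 4.9e-04). Abcb10, the membrane partner that stabilises mitoferrin-1, is named after its values were seen. It fell from 931 ± 33.3 to 717 ± 36.1 (-0.38, adjusted P = 0.0043), the same direction as Slc25a37.

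General mitochondrial genes moved in both directions: of 10, 6 were lower and 2 were higher (median -0.25). Among all tested genes 23.3% were lower and 22.4% higher. The number lower was 4 without control kidney 2 or 3, and 3 with the correction for exon length and the replicate block together. Immt, of the inner membrane's folds, and Cs, citrate synthase, had log2 fold changes of -0.57 and -0.53 (adjusted P = 4.8e-04 and 0.0014). Tomm20, an import receptor, and Ppargc1a, a coactivator of mitochondrial biogenesis, had 0.62 and 0.30 (adjusted P = 0.0011 and 0.0049). The part of a lower mitochondrial content in the falls among the members was not tested.

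Of 6 genes that report on cellular iron, 2 were higher and 1 was lower, beside 22.4% and 23.3% of all tested genes. The number higher was 1 without any 1 control kidney, and 3 with the correction for exon length and the block together. Tfrc, the transferrin receptor, whose transcript is known to be stabilised by iron regulatory proteins in iron-poor cells, fell from 6450 ± 531 to 4670 ± 200 normalized counts (log2 change -0.47, SE 0.08, adjusted P = 0.0021). Fth1, the heavy chain of ferritin, rose from 24900 ± 568 to 32000 ± 3520 (0.36, adjusted P = 0.017), and Ireb2, iron regulatory protein 2, rose from 2210 ± 27.3 to 3020 ± 174 (0.45, adjusted P = 7.1e-04).

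Transcripts that mark cell types, and traits of the libraries, also differed between the groups. Such markers cannot tell fewer cells from less RNA per cell. The counts of markers stand beside 22.4% higher and 23.3% lower among all tested genes. Proximal tubule markers were lower in 8 of 10, with a summed level of 16000 to 17300 CPM in control and 10800 to 12200 CPM in FeD kidneys. However, Kap, the most abundant of them, had a log2 fold change of 0.03 (adjusted P = 0.85). Cycling cell markers, led by Mki67, were lower in 5 of 5 (106 to 122 against 29.0 to 37.0 CPM). Distal convoluted tubule markers, led by Slc12a3, were lower in 2 of 3 (1220 to 1530 against 347 to 544 CPM), and collecting duct markers, led by Aqp2, were higher in 3 of 4 (918 to 1390 against 1570 to 2730 CPM). Endothelial markers were lower in 4 of 5, but not Pecam1, the most abundant (0.09, adjusted P = 0.52). Intercalated cell markers were lower in 2 of 5, among them the most abundant, Slc4a1 (-1.42, adjusted P = 0.0051), and higher in 2. Of 5 thick ascending limb markers 1 was lower and of 5 podocyte markers 1 was higher, while the most abundant of each, Slc12a1 (0.13, adjusted P = 0.59) and Podxl (-0.03, adjusted P = 0.88), did not pass. Macrophage markers were higher in 2 of 5 and lower in 1, the most abundant, Csf1r (-0.45, adjusted P = 0.0060). Stromal markers were higher in 3 of 5 and lower in 2, among them the most abundant, Col3a1 (-1.05, adjusted P = 2.1e-04). By Xist against Y-linked transcripts, 2 of 3 control and 1 of 3 FeD kidneys were from females. With sex as a covariate, 2 members were higher and 4 lower, as before. Shorter genes were lower overall: the median log2 fold change ran from -0.132 among the 3433 genes with the shortest exons to 0.109 among the 3432 with the longest. The part of cell make-up and of transcript length in the members' changes was not tested beyond the values given here.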

How the data were processed

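Poly-A RNA of 6 kidneys was sequenced on TruSeq libraries. The authors trimmed reads with Trimmomatic, aligned them to mm9 with TopHat 2.0.11, kept uniquely mapped reads and deposited raw counts per gene from HTSeq, without normalization. The annotation, counting mode and strand setting are not given in the sources used here.

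Groups came from the labels. The comparison was run on the counts with edgeR 4.0.16 (R 4.3.3): filterByExpr (15145 of 24422 genes kept), TMM, the quasi-likelihood test, and Benjamini-Hochberg adjustment over all tested genes at 0.05. SE is the log2 fold change divided by the square root of F. Ratios of 2 genes used log2 counts with a pseudocount of 0.5 and the exact permutation test. Exon lengths (90.7% of tested genes) and positions came from GENCODE on NCBIM37 (mm9). The procedure was tested on simulated data. Libraries of a group differed beyond sampling noise (chi-square per degree of freedom 3.77 to 30.4). Counting error only is covered by the depth of the counts.

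The members and gene lists were chosen with earlier results of these data known. Beside the members, the text names the 2 genes with the largest change in each direction of each pathway list, the most abundant gene of each marker list, Tfrc, and the nearest profiles of 3 members. Alternatives were other normalizations, filters, DESeq2 1.42.0, 12 globin genes left out (0 mitochondrially encoded genes were in the tables), a replicate block and each kidney left out. Chosen after seeing the data were a correction for exon length, with and without the block, and sex as a covariate. Single values of some listed genes are not reported here.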

Additional observations from a re-analysis of the deposited data

How the results depend on the processing

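Of the 8 members, 2 were higher in 16 of 17 alternatives (1 to 2 with 1 kidney left out; 1 without control kidney 1, where Hscb had an adjusted P of 0.050), 3 to 4 were lower, and 0 changed at least 2-fold in any. Iscu lost its call under 6 alternatives, 2 beside those of exon length and the kidneys named above: the replicate block (-0.20, adjusted P = 0.056) and the block with the correction for exon length (-0.10, adjusted P = 0.27). Isca2 turned to 0.05 with the correction for exon length, alone and with the block. The cause was not tested. Nfs1, Glrx5, Slc25a37 and Slc25a28 kept their direction and call under all 17, with log2 fold changes of -0.34 to -0.25, -0.47 to -0.26, -0.40 to -0.28 and 0.36 to 0.54. Among the 27 other assembly factors, 7 to 12 were lower, and the number higher was 1 with the correction for exon length, with or without the block, and 1 to 2 with 1 kidney left out. The difference in the log2 ratio of Isca1 to Isca2 ran from -0.05 to 0.03 with 1 kidney left out. Replicate numbers do not pair the kidneys: same-numbered kidneys correlated at -0.162, 0 and -0.035 in their deviations. With the replicate number as a block, 2 members were higher and 3 lower. Scalings moved the median of all genes by at most 0.03 in size (-0.03 with the upper quartile). With 3 kidneys a group, small changes such as those of Isca1 and Isca2 stay within the intervals given.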

Other observations

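The tested genes whose profile over the 6 kidneys was nearest to that of a member, by the root mean square distance of log2 CPM centred on its mean, were named for the 3 members with the largest changes. For Glrx5 they were Fzd8, a Wnt receptor, at a distance of 0.003, and Rps6ka1, a kinase, at 0.023, each with a log2 fold change of -0.44. For Hscb they were Gtf2ird1, a transcription factor (0.017), and Mcmdc2, a protein of meiotic recombination (0.036), with log2 fold changes of 0.41 and 0.38. For Slc25a28 they were Rplp1, a ribosomal protein (0.020), and Vat1 (0.024), each with a log2 fold change of 0.40. With 15145 genes and 6 kidneys, such close matches are a description of these libraries.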
